A study of Mus musculus with 20 samples.

Results

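Loss of SGLT2 function was compared under an inhibitor of methionine adenosyltransferase 2A (MAT2A) in the kidney cortex of mice fed a high-fat diet (HFD). The comparison set the 5 libraries of Sweet Pee mice given the inhibitor (SP MAT2Ai) against the 5 libraries of wild-type mice given the inhibitor (WT MAT2Ai), chosen by their titles, and so used 10 of the 20 libraries of the series. All were bulk poly(A) RNA-seq libraries of C3H/HeJ males that were 10 weeks old when the HFD began. SP mice are homozygous for a missense mutation in *Slc5a2*, carried by every cell, and make no functional SGLT2. The paper places SGLT2 expression in the proximal convoluted tubule alone. After 8 weeks of HFD, all mice received injections 3 times a week for a further 8 weeks, with HFD continued. The MAT2Ai groups received the MAT2A inhibitor, a chlorofluorostyryl derivative of N-methylaniline, at 10 mg/kg intraperitoneally, and the placebo groups (SP placebo and WT placebo, 5 libraries each) received its DMSO vehicle. No group was on normal diet, so every value below is a difference between genotypes on HFD. The labels number the libraries within a group without naming the animals. The p-values measure the spread between libraries, which was estimated over all 20 for the MAT2Ai contrast.

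SGLT2 is the sodium-glucose cotransporter that takes up most of the filtered glucose in the early proximal tubule, and mice or patients that lack it lose glucose in the urine. MAT2A makes S-adenosylmethionine, the methyl donor of histone, DNA and RNA methylation, in most tissues outside the liver. Proximal tubule cells burn fatty acids for energy, and injured ones lose transporters and enzymes while they turn on secreted and cytoskeletal proteins such as lipocalin 2 and KIM-1.

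Total gene counts were 63058465 to 79339949 in SP MAT2Ai and 56380384 to 70105956 in WT MAT2Ai, and 53296824 to 79339949 over the series. Neither the totals, the mitochondrial share of counts (14.1% to 18.5% in SP and 15.2% to 22.2% in WT), nor the other 3 technical values compared differed between these groups (exact two-sided permutation test over all arrangements, adjusted p = 0.357 to 0.770). Library WT MAT2Ai 2 stood apart on the first principal component (80.8, against -32.9 to 15.0 in the other 9). Values below are CPM, raw counts scaled to the TMM-adjusted size of each library, in library order 1 to 5, and a log2 fold change is SP against WT with its standard error. In bulk tissue, fewer cells of a type and less RNA per cell cannot be told apart.

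*Slc5a2* itself was checked first. The gene (ENSMUSG00000030781, mm10 chr7:128265657-128272430) held 72.6, 47.0, 43.5, 85.9 and 60.0 CPM in the SP MAT2Ai libraries and 415, 229, 389.6, 325 and 385 CPM in the WT MAT2Ai libraries. The 2 groups did not overlap, and all 10 libraries followed their labels. The log2 fold change was -2.50 ± 0.42 (edgeR quasi-likelihood test, adjusted p = 0.0223). Among placebo mice the labels were followed less well: libraries SP placebo 1 and 2 held *Slc5a2* at 241 and 282 CPM, against 70.1, 40.2 and 56.7 CPM in SP placebo 3 to 5, so the main placebo values are also given without these 2 libraries.

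The test called 298 of 16152 genes (1.84%) at an adjusted p under 0.05, 104 higher in SP MAT2Ai (0.644%) and 194 lower (1.20%). Without the TMM adjustment, the split was 42 higher and 439 lower. The calls sat just inside the threshold: the smallest adjusted p was 0.0223, and 3524 genes had an unadjusted p under 0.05. Leaving out library SP MAT2Ai 3 or 5 left no gene called (smallest adjusted p = 0.0572 and 0.0758, with 3058 and 2642 genes at an unadjusted p under 0.05 and 593 and 293 called by the likelihood ratio test). Without SP MAT2Ai 1 or 2 there were 38 and 1 calls, without WT MAT2Ai 1, 4 or 5 there were 606, 778 and 761, and without WT MAT2Ai 3 there were 194. With the spread estimated from these 10 libraries alone, 2 genes were called, and by DESeq2 over all 20 libraries 1203 were. Calls are therefore given together with the per-library values.

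Genes were described by 2 classes, which do not cover all of the difference between genotypes. In 549 genes (3.40%) all 5 libraries of one genotype lay beyond all 5 of the other, 277 higher in SP (1.71%) and 272 lower (1.68%). On unadjusted library sizes the split was 93 higher and 435 lower, with 349 genes in both versions. The median log2 fold change of the 277 was 0.28 and that of the 272 was -0.78, so rises were small and falls were deeper. Of the 549, 184 were called, 77 higher and 107 lower, while the other 114 called genes had ranges that overlapped. The other class was genes set by a single library. Of 833 genes with a log2 fold change of at least 1 in size, 72 were higher and 761 lower in SP, and only 91 of these had ranges that did not overlap. In 246 genes (1.52%), leaving out 1 library removed more than 1/2 of a log2 fold change of at least 1 in size. Of these 246, 243 were lower in SP, 14 were called and 6 had ranges that did not overlap. Library WT MAT2Ai 2 set 112 of them, WT MAT2Ai 5 set 61, WT MAT2Ai 3 set 59, WT MAT2Ai 4 set 7 and WT MAT2Ai 1 set 4, while SP MAT2Ai 1 and 2 set 2 and 1.

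**Figure D1:**
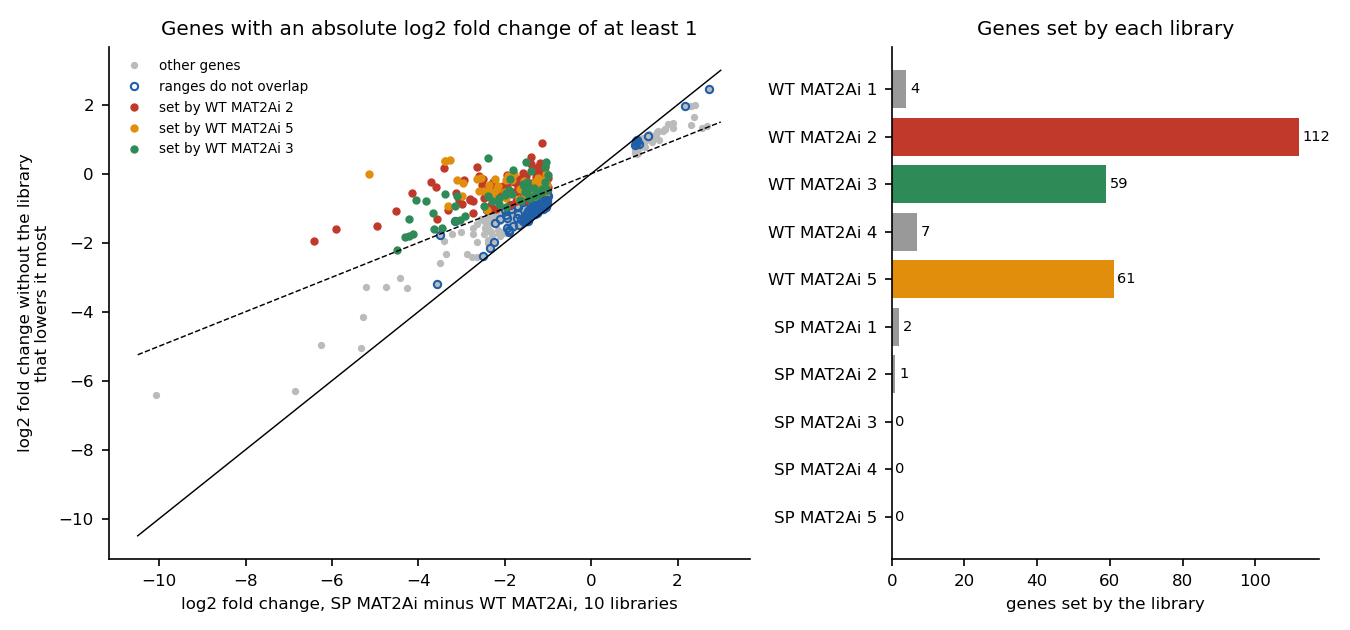
Left, log2 fold change of each gene with a change of at least 1 in size (x axis) against the value without the library that lowers it most (y axis), with the dashed line at 1/2 of the change; right, number of genes (x axis) set by each library (y axis). The bars reach 112 for WT MAT2Ai 2, 61 for WT MAT2Ai 5 and 59 for WT MAT2Ai 3, and no bar of an SP library exceeds 2.

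Genes that were higher in SP MAT2Ai with no overlap included enzymes and carriers of the proximal tubule. *Ehhadh*, the peroxisomal bifunctional enzyme of fatty acid β-oxidation, read 472, 414, 494, 373 and 473 CPM in SP and 262, 300.1, 316, 292 and 293 CPM in WT. Every SP library exceeded every WT library by a clear margin, and the log2 fold change was 0.61 ± 0.09 (adjusted p = 0.0223). *Degs2*, a dihydroceramide desaturase and hydroxylase that makes phytoceramides, read 97.0, 102, 109, 84.6 and 104 CPM in SP and 57.2, 39.0, 69.2, 67.4 and 59.3 CPM in WT (0.77 ± 0.13, adjusted p = 0.0223). *Slc22a6*, the organic anion transporter OAT1 of the basolateral membrane, read 1908, 1986, 1867, 1646 and 1896 CPM in SP and 1449, 926, 1226, 1312 and 1426 CPM in WT (0.55 ± 0.11, adjusted p = 0.0266). WT MAT2Ai 2 was the lowest library for both *Degs2* and *Slc22a6*, but the other 4 WT libraries also lay below all SP libraries.

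*Slc6a15*, a sodium-dependent transporter of branched-chain amino acids and proline, read 57.4, 46.2, 58.3, 36.1 and 50.0 CPM in SP and 27.4, 25.6, 30.6, 33.0 and 29.6 CPM in WT (0.76 ± 0.14, adjusted p = 0.0266). *Nt5dc2*, a member of the 5′-nucleotidase domain family, read 21.9, 23.4, 17.0, 16.8 and 19.9 CPM in SP and 12.6, 8.39, 12.7, 13.9 and 10.1 CPM in WT (0.78 ± 0.14, adjusted p = 0.0226). *Gpc1*, a cell-surface heparan sulphate proteoglycan, read 26.1, 42.9, 40.0, 31.5 and 39.7 CPM in SP and 18.9, 17.0, 18.2, 24.5 and 20.5 CPM in WT (0.87 ± 0.19, adjusted p = 0.0370). In each of these every SP library lay above every WT library. *Col19a1*, a basement-membrane zone collagen, had the largest change of the non-overlapping rises described here: 3.27, 4.41, 5.13, 4.58 and 3.6 CPM in SP against 2.04, 0.513, 2.19, 1.65 and 2.04 CPM in WT (1.31 ± 0.30, adjusted p = 0.0412).

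Drug and steroid metabolism gave further non-overlapping rises. *Ugt2b38*, a UDP-glucuronosyltransferase, read 2445, 2276, 2719, 2522 and 2690.1 CPM in SP and 1856, 1008, 1759, 2104 and 1654 CPM in WT (0.59 ± 0.14, adjusted p = 0.0432). The carboxylesterase *Ces2c* read 288, 225, 253, 213 and 275 CPM in SP and 152, 105, 163, 197 and 189 CPM in WT (0.64, adjusted p = 0.0354), and its paralogue *Ces2b* changed by 0.89 ± 0.21 (adjusted p = 0.0422). Reads of these families can be split among near-identical copies, which makes the member uncertain. *Cyp2e1*, a P450 that oxidizes ethanol and acetone, read 4802, 5644, 5482, 5259 and 5122 CPM in SP and 4118, 2273, 3755, 4301 and 4009 CPM in WT, without overlap, but its adjusted p of 0.0505 did not pass. The P450 *Cyp2d9*, a male-dominant steroid hydroxylase, lay in the other direction and read 37.3, 71.6, 64.9, 97.9 and 66.6 CPM in SP and 123, 134, 125, 164 and 99.5 CPM in WT (-0.93 ± 0.24, adjusted p = 0.0488).

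Beyond single genes, the medians of the proximal tubule lists lay slightly above that of all genes. The median log2 fold change over all tested genes was -0.02, and -0.09 without the TMM adjustment, so small list medians are read against it. Of all 16152 tested genes, 7520 were positive and 8632 negative, and sign counts of lists are read against that split. Called shares over all genes were 0.644% higher and 1.20% lower. Of 19 markers of the S1 and S2 segments, 13 had a positive log2 fold change (median 0.17), with 2 called higher, *Slc22a6* and the urate carrier *Slc22a12* (0.36), and 1 lower, *Slc5a2*. The median was 0.10 without WT MAT2Ai 2, and 0.08 without WT MAT2Ai 2 and 3 together. Their summed level was 19144 to 21914 CPM in SP and 15874 to 20603 CPM in WT. The S3 markers had a median of 0.20 (11 of 17 positive, none called) and the proximal tubule transcription factors a median of 0.24 (11 of 13 positive, 1 called higher). Without WT MAT2Ai 2 these medians were 0.15 and 0.17, and without WT MAT2Ai 2 and 3 together 0.15 and 0.09.

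Genes of fatty acid oxidation and PPARα had positive values in 23 of 35 (median 0.11), of which *Ehhadh* and the acyl-CoA thioesterase *Acot12* (0.55 ± 0.10, adjusted p = 0.0266) were called. The other 12 were negative, and 3 genes of the list were set by WT MAT2Ai 2. *Angptl4* (-2.74, edgeR adjusted p = 0.0599) and *Cyp4a14* (-2.94, edgeR adjusted p = 0.0843) had large negative values and were not called. *Hadh*, the mitochondrial 3-hydroxyacyl-CoA dehydrogenase, did not overlap (512, 504, 547, 493 and 571 CPM in SP against 439, 308, 436, 467 and 463 CPM in WT) and missed the threshold (0.31, adjusted p = 0.0586). Among 29 P450 and transferase genes, 19 were positive (median 0.14), 2 were called higher and 2 lower (against 0.644% and 1.20% of all genes), and 6 lay above and 1 below without overlap (against 1.71% and 1.68%). Genes of potassium, acid and ammonia handling were positive in 13 of 15 (median 0.28), with the basolateral potassium channel subunit *Kcnj16* called (863, 866, 803, 773 and 751 CPM in SP against 731, 577, 688, 657 and 689 CPM in WT, 0.28 ± 0.07, adjusted p = 0.0422). Gluconeogenesis (9 of 10 positive, median 0.14) and ketone body genes (7 of 9 positive, median 0.24) had no call. Their medians were 0.07 and 0.16 without WT MAT2Ai 2, and 0.01 and 0.17 without WT MAT2Ai 2 and 3 together.

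**Figure D2:**
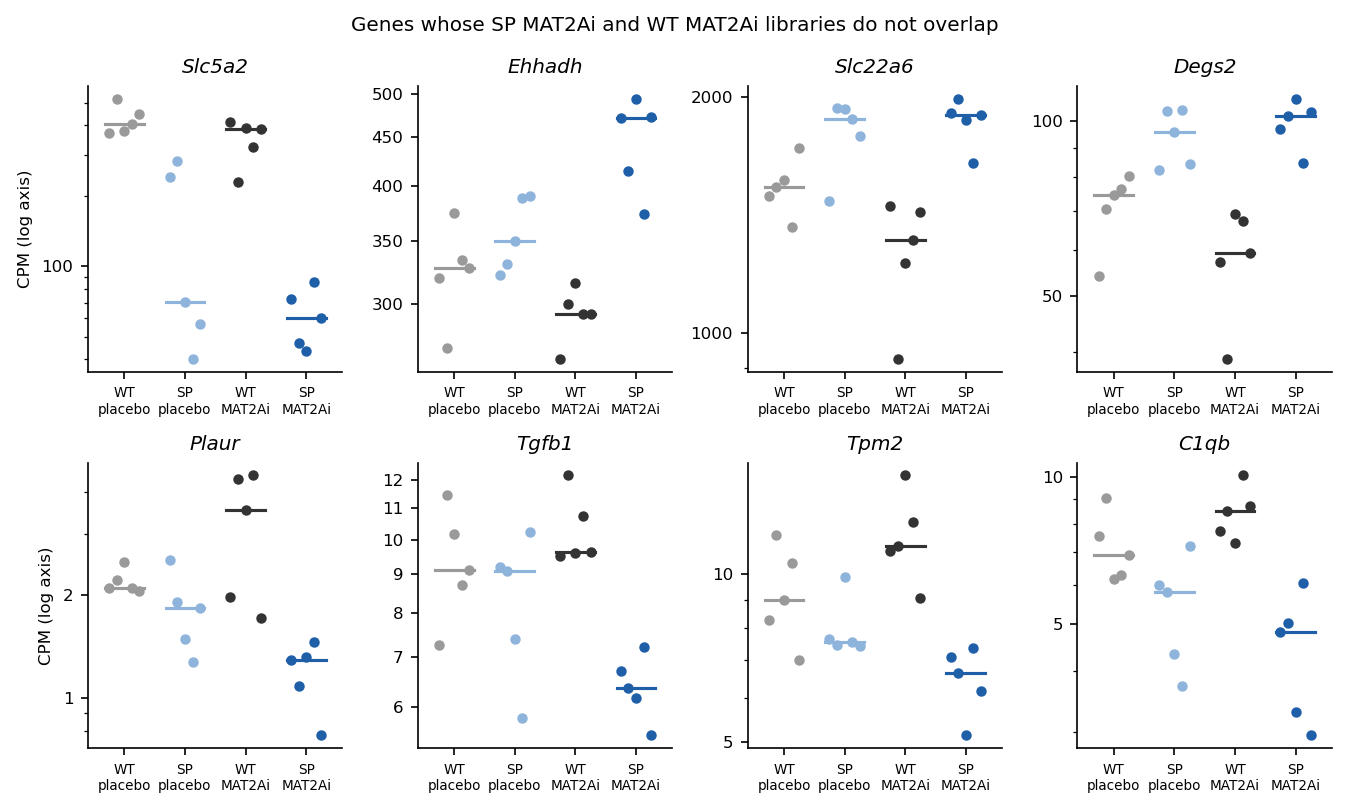
CPM on a log axis for 8 genes whose MAT2Ai ranges did not overlap, in the 4 groups of 5 libraries, each point a library and each line a group median. *Ehhadh* spans 373 to 494 in SP MAT2Ai and 262 to 316 in WT MAT2Ai, while *Plaur* spans 0.776 to 1.45 in SP MAT2Ai and 1.70 to 4.46 in WT MAT2Ai.

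Genes that were lower in SP MAT2Ai without overlap formed a different set, with injury, matrix, myeloid and vascular genes among them. *Fxyd5* (dysadherin), a regulator of the sodium pump and of cell adhesion, read 5.04, 4.73, 3.57, 4.90 and 3.74 CPM in SP and 7.57, 8.90, 8.18, 9.06 and 7.50 CPM in WT (-0.91 ± 0.14, adjusted p = 0.0223). The WT values were close together, so the difference did not rest on 1 library. *Tpm2*, a tropomyosin of contractile cells, read 7.09, 6.63, 5.13, 7.36 and 6.16 CPM in SP and 11, 11.2, 15.0, 12.4 and 9.05 CPM in WT (-0.86 ± 0.15, adjusted p = 0.0223).

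*Plaur*, the urokinase receptor uPAR, acts in fibrinolysis. It read 1.28, 1.08, 1.32, 1.45 and 0.776 CPM in SP and 1.97, 4.35, 3.54, 4.46 and 1.70 CPM in WT (-1.44 ± 0.25, adjusted p = 0.0226). *Anxa2*, annexin A2, a cell-surface docking protein for plasminogen, read 17.5, 14.1, 19, 19.9 and 14.3 CPM in SP and 23.3, 103, 44.3, 33.7 and 21.2 CPM in WT (-1.41 ± 0.31, adjusted p = 0.0354). WT MAT2Ai 2 was far the highest, and without it the log2 fold change of *Anxa2* was -0.85. *Sgk1*, the kinase that raises sodium channel activity, had the same shape (35.4, 38.5, 39.0, 32.9 and 41.5 CPM in SP, and 59.7, 187, 92.3, 84.3 and 42.6 CPM in WT, -1.32 ± 0.30, adjusted p = 0.0410).

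The promoters of *Plaur* and *Anxa2* are shown because both hold the AP-1 motif TGANTCA, the letters bound by FOS and JUN dimers, which act downstream of growth factor and injury signals. Each is the 250 bases upstream of the RefSeq start on GRCm38.p6 (chr7:24462233-24462482 and chr9:69453433-69453682, both on the plus strand), 5′ to 3′, with the motif in capitals 69 and 95 bases upstream of the start.
Plaur: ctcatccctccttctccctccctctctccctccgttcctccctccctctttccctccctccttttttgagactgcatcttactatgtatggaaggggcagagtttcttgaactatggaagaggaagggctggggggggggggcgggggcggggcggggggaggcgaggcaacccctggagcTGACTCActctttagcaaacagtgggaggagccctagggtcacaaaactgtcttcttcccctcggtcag
Anxa2: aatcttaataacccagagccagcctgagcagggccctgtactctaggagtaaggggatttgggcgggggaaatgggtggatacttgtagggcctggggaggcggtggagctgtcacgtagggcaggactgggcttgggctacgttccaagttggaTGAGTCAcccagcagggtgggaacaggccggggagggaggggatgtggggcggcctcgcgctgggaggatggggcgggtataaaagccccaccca
With both strands searched, TGANTCA was found in 19 of 278 promoters (6.84%) of the non-overlapping genes that were lower in SP (203 of 272 genes matched) and in 6 of 269 (2.23%) of those that were higher (210 of 277 matched). The share was 6.75% of all 32851 listed promoters and 4.78% of the 14825 promoters of tested genes. No base of the motifs shown is shared with another motif searched, and a match is a description of these letters only. The AP-1 genes *Fosb* (2.56), *Fos* (1.70), *Jun* (0.37) and *Junb* (0.23) had positive log2 fold changes and were not called (edgeR adjusted p = 0.0551 to 0.777). In the list of AP-1 and immediate early genes, 9 were positive and 18 negative.

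Growth factor, matrix and contractile genes followed. *Tgfb1*, the fibrogenic cytokine, read 6.70, 6.35, 6.17, 7.20 and 5.51 CPM in SP and 9.50, 12.2, 9.60, 10.8 and 9.64 CPM in WT (-0.69 ± 0.14, adjusted p = 0.0292). Of 12 myofibroblast and smooth muscle genes, all 12 were negative (median -0.65) and 4 were called lower, against 1.20% of all genes. These were *Tpm2*, *Tagln* (-0.89 ± 0.16, adjusted p = 0.0248), *Acta2* (-0.80 ± 0.19, adjusted p = 0.0422) and *Pdgfra* (-1.59, adjusted p = 0.0422). *Tagln* and *Acta2*, which encode SM22α and smooth muscle actin, overlapped only through WT MAT2Ai 5. Of 28 collagen and matrix genes, 26 were negative (median -0.59) and 3 were called lower, against 1.20% of all genes. These were *Tgfb1*, the matricellular protein *Postn* (-1.95, adjusted p = 0.0454) and the protease inhibitor *Timp1* (-3.57, adjusted p = 0.0432, and -1.30 without WT MAT2Ai 2). *Mmp14*, a membrane collagenase, did not overlap but missed the threshold (-0.83, adjusted p = 0.0514).

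All 17 macrophage and dendritic cell markers were negative (median -0.74), with 5 called (against 1.20% of all genes in that direction) and 6 without overlap (against 1.68%). Their summed level was 56.2 to 102 CPM in SP and 101 to 615 CPM in WT, of which 615 was WT MAT2Ai 2 and the other 4 WT libraries held 101 to 142 CPM. *C1qb*, a chain of complement C1q made by tissue macrophages, read 4.81, 5.01, 3.30, 6.07 and 2.95 CPM in SP and 7.74, 8.51, 7.33, 10.1 and 8.72 CPM in WT (-0.93 ± 0.19, adjusted p = 0.0311). *Fcgr3*, an Fcγ receptor, read 1.01, 1.61, 1.53, 1.58 and 1.25 CPM in SP and 2.51, 3.90, 1.71, 4.62 and 2.35 CPM in WT (-1.11 ± 0.24, adjusted p = 0.0354). The median of the list was -0.67 without WT MAT2Ai 2 and -0.77 without WT MAT2Ai 5, so the median moved little without either library. *H2-Q10*, a secreted class Ib histocompatibility protein with close paralogues, read 2.24, 2.45, 2.55, 3.07 and 2.28 CPM in SP and 5.86, 8.22, 4.56, 3.34 and 12.1 CPM in WT (-1.43 ± 0.24, adjusted p = 0.0223).

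Endothelial markers were negative in 15 of 15 (median -0.51), with 2 called lower, against 1.20% of all genes. These were *Nos3*, endothelial nitric oxide synthase (3.02, 3.33, 4.17, 4.40 and 3.59 CPM in SP against 5.23, 6.57, 6.58, 6.85 and 7.03 CPM in WT, -0.80 ± 0.17, adjusted p = 0.0354), and the junction protein *Esam* (-1.01, adjusted p = 0.0422). Their sum was 176 to 254 CPM in SP and 189 to 408 CPM in WT. *Angpt2*, the TIE2 ligand that destabilizes vessels, also lay lower (1.33, 1.10, 1.40, 1.70 and 1.02 CPM in SP against 2.78, 2.25, 7.07, 3.91 and 2.14 CPM in WT, -1.47 ± 0.32, adjusted p = 0.0354). Lymphocyte markers were negative in 14 of 14 (median -0.68) and neutrophil markers in 8 of 8 (median -0.54), with none called in either list. Adipocyte markers were negative in 7 of 8 (median -2.99, and -3.62 to -2.43 on leaving out 1 library), with *Cfd* and *Plin4* called lower, while their summed level was 134 to 192 CPM in SP and 127 to 202 CPM in WT. The defining adipocyte gene *Cfd* was at 0 in SP MAT2Ai 2 and 4 and WT MAT2Ai 1, at most 0.0488 CPM in the other SP libraries, and at 5.11 CPM in WT MAT2Ai 3. The part of these cell types in the other lists was not tested.

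The sterol synthesis list moved little as a whole (18 of 24 negative, median -0.16). *Msmo1* (-0.73, adjusted p = 0.0409) and *Sqle* (-0.51, adjusted p = 0.0439), both enzymes of the cholesterol pathway, were called lower, with ranges that overlapped.

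*Asns*, asparagine synthetase, is a target of ATF4 in the integrated stress response. It read 2.02, 2.97, 2.42, 2.17 and 2.19 CPM in SP and 3.42, 17.9, 4.61, 4.07 and 3.74 CPM in WT (-1.52 ± 0.35, adjusted p = 0.0421). All WT libraries lay above all SP libraries, yet WT MAT2Ai 2 alone gave more than 1/2 of the change, which was -0.75 without it. The *Asns* promoter is shown because it holds the amino acid response element TGATGNAA, which ATF4 dimers bind: 250 bases upstream of the start (GRCm38.p6 chr6:7693210-7693459, minus strand), the element in capitals 23 bases upstream.
Asns: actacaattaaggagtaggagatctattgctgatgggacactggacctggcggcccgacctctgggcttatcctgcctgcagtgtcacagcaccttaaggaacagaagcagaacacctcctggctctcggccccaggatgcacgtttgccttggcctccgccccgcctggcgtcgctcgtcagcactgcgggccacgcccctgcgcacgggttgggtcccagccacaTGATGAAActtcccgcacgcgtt
These letters occurred in 2.52% of the promoters of non-overlapping genes lower in SP, in 1.49% of those higher, in 3.45% of all listed promoters and in 2.01% of those of tested genes. Of the 16 integrated stress response and serine synthesis genes, 12 were negative (median -0.69) and 3 were called lower, against 1.20% of all genes. The median was -0.22 without WT MAT2Ai 2. Besides *Asns*, the pseudokinase *Trib3* (-1.99, adjusted p = 0.0421, and -1.06 without WT MAT2Ai 2) and *Phgdh*, which opens serine synthesis (-1.04, adjusted p = 0.0441, and -0.51 without WT MAT2Ai 2 and 3), were called. *Akap12*, a scaffold of protein kinase A, had the same double shape: 4.44, 4.38, 4.50, 5.17 and 3.30 CPM in SP, and 7.94, 72.0, 9.31, 11.9 and 6.02 CPM in WT (-2.30 ± 0.53, adjusted p = 0.0420, and -1.01 without WT MAT2Ai 2).

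Tubular injury genes had more calls than any other list described here, and many were set by WT MAT2Ai 2. All 29 were negative (median -1.19), 10 were called (against 1.20% of all genes in that direction), 4 did not overlap (against 1.68%, *Plaur* and *Anxa2* among them) and 9 were set by that library (against 1.52% set by any library). The median was -0.61 without WT MAT2Ai 2, and -0.33 without WT MAT2Ai 2 and 3 together. In the placebo libraries the median of the same list was -0.26. *Lcn2*, lipocalin 2 (NGAL), an injury marker released by tubules, read 0.910, 4.67, 2.85, 2.31 and 1.0 CPM in SP and 2.79, 676, 19.4, 5.01 and 1.06 CPM in WT. Its log2 fold change of -5.90 ± 1.34 (adjusted p = 0.0399) was -1.59 without that library, and SP MAT2Ai 2 lay above 2 of the WT libraries. *Havcr1*, which encodes KIM-1, read 24.4, 65.9, 23.8, 28.7 and 18.3 CPM in SP and 52.5, 1214, 74.4, 43.8 and 20.6 CPM in WT. Its change of -3.12 ± 0.83 did not pass (adjusted p = 0.0526) and was -0.57 without WT MAT2Ai 2.

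*Fgg*, the fibrinogen γ chain, which injured tubules make, read 1.19, 1.96, 1.27, 1.04 and 1.44 CPM in SP and 1.29, 568, 16.2, 2.63 and 0.957 CPM in WT (-6.41 ± 1.37, adjusted p = 0.0346, and -1.94 without WT MAT2Ai 2). *Lrg1*, a secreted acute phase glycoprotein, reached 254 CPM in WT MAT2Ai 2 (-3.60, adjusted p = 0.0465, and -0.40 without it). *Cdkn1a*, the cell-cycle inhibitor p21, read 18.9, 17.1, 22.5, 9.20 and 9.78 CPM in SP and 19.5, 237, 17.7, 31.1 and 11.7 CPM in WT, with an adjusted p of 0.0699. In each of these the other 4 WT libraries overlapped the SP libraries. The 32 genes of the p53 pathway were 16 positive and 16 negative (median -0.02). Of 10 acute phase genes tested, 9 were negative and 6 were set by a single library, against 1.52% of all genes. Their median of -1.55 was -0.45 without WT MAT2Ai 2, and -0.27 without WT MAT2Ai 2 and 3 together. The total counts of WT MAT2Ai 2, 59750418, and its mitochondrial share, 16.9%, lay within the range of the other WT libraries, while its ambiguous share of reads, 0.794%, and its TMM factor, 1.08, were the highest of the 20 libraries, and their part in these values was not tested.

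**Figure D3:**
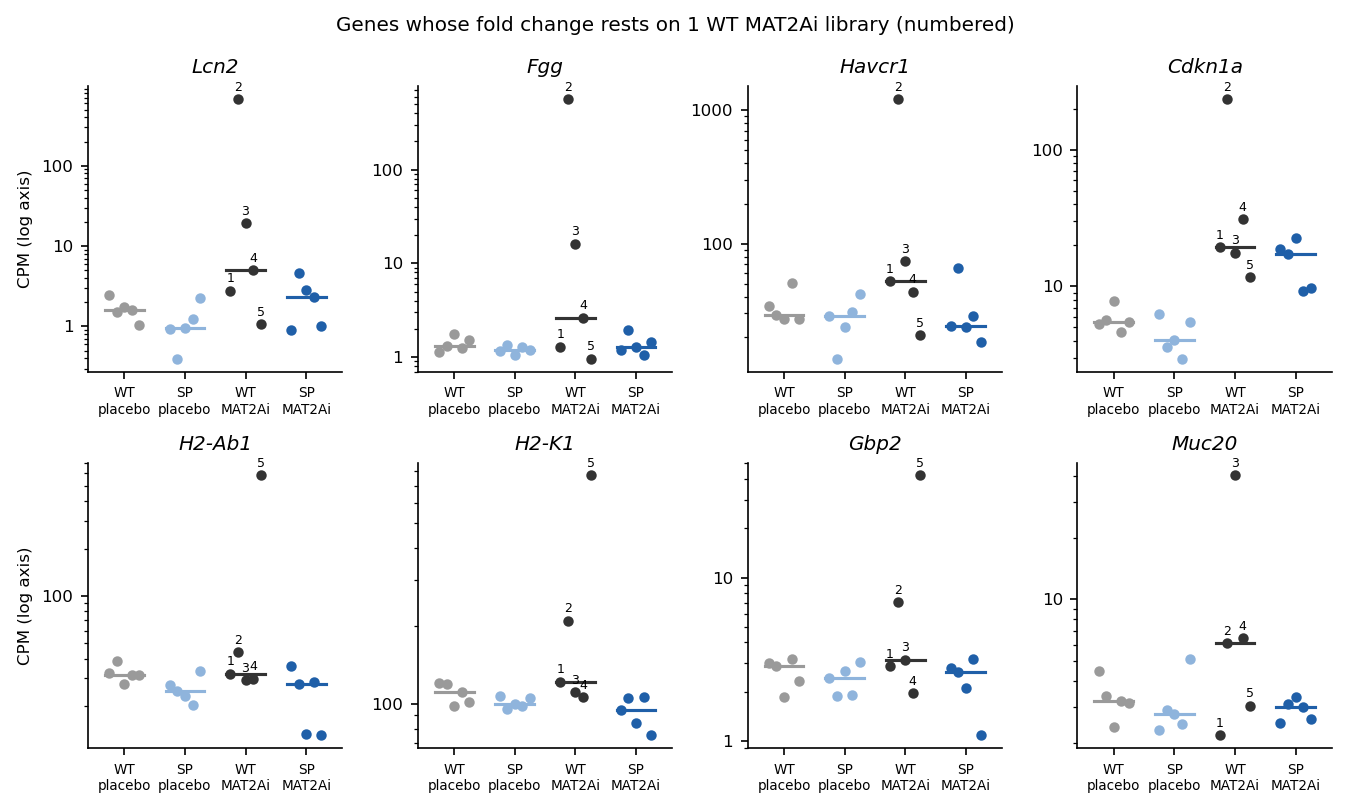
CPM on a log axis for 8 genes whose change was set by 1 WT library, in the 4 groups of 5 libraries, each point a library (WT MAT2Ai points carry their number) and each line a group median. *Lcn2* reaches 676 in WT MAT2Ai 2, *H2-Ab1* 582 in WT MAT2Ai 5 and *Muc20* 40.2 in WT MAT2Ai 3, above every other point of those genes.

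WT MAT2Ai 5 set another group, antigen presentation and interferon-stimulated genes. *H2-Ab1*, the β chain of MHC class II, read 36.1, 27.6, 13.2, 28.3 and 13.0 CPM in SP and 32.1, 43.9, 29.0, 29.8 and 582 CPM in WT. The change of -2.60 ± 0.69 did not pass (adjusted p = 0.0524) and was -0.51 without that library. *H2-K1*, a class I heavy chain with close paralogues, read 94.0, 105, 84.0, 106 and 75.3 CPM in SP and 122, 209.8, 111, 106 and 766 CPM in WT (-1.50 ± 0.39, adjusted p = 0.0520, and -0.56 without it). *Gbp2*, a guanylate-binding protein induced by interferon γ, read 2.8, 2.63, 2.10, 3.19 and 1.08 CPM in SP and 2.87, 7.07, 3.14, 1.95 and 42.2 CPM in WT (-2.27 ± 0.62, adjusted p = 0.0558, and -0.67 without it). WT MAT2Ai 5 also had the highest mitochondrial share of the 10 libraries, 22.2%, and its part in these values was not tested.

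Over all genes, 1.20% were called lower and 1.52% were set by a single library. By list, all 11 MHC class II genes were negative (median -2.0, 1 called, 8 set by a single library), and the median without WT MAT2Ai 5 was -0.52. All 19 MHC class I and immunoproteasome genes were negative (median -1.12, none called, 11 set by a single library), with a median of -0.31 without it. The 32 interferon-stimulated genes had a median of -0.77, which was -0.31 without WT MAT2Ai 5 and again -0.77 without WT MAT2Ai 2. The 3 medians thus stayed negative without that library, and no gene of the class I and interferon lists was called.

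The *Gbp2* promoter is shown because it holds the interferon-stimulated response element TTTC, any 2 bases, TTTC, the letters bound by interferon regulatory factors, as did other genes set by this library. The 250 bases lie upstream of the start on GRCm38.p6 (chr3:142620413-142620662, plus strand), with the element in capitals 59 bases upstream. The same window also holds 1 AP-1 match, in lower case.
Gbp2: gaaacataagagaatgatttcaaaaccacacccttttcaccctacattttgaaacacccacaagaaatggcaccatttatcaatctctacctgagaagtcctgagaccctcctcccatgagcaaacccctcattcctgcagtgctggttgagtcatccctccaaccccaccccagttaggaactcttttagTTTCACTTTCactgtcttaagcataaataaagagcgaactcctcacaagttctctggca
The element was in 13 of 43 promoters (30.2%) of the genes set by WT MAT2Ai 5 (40 of 61 genes matched). It was in 2.98% of all listed promoters and 2.68% of those of tested genes. Among non-overlapping genes it was in 4.32% of promoters of those lower in SP and 4.09% of those higher. Its carriers in the first group included *Irgm1*, *Irgm2*, *Igtp*, *Bst2*, *B2m*, *H2-T23* and *Tgtp1*.

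The remaining libraries set fewer abundant genes. WT MAT2Ai 3 set 59 genes, but only 9 of these had a mean log2 CPM of at least 0, against 57 of 112 for WT MAT2Ai 2 and 41 of 61 for WT MAT2Ai 5. *Muc20*, a membrane mucin, read 2.49, 3.08, 3.35, 2.98 and 2.60 CPM in SP and 2.17, 6.12, 40.2, 6.46 and 3.03 CPM in WT (-2.0 ± 0.56, adjusted p = 0.0581, and -0.61 without WT MAT2Ai 3). *Hmox1*, the stress-induced heme oxygenase, reached 456 CPM in WT MAT2Ai 1 (-2.50, adjusted p = 0.0558, and -0.86 without it). *Cyp2b10*, a P450 under the nuclear receptor CAR, reached 26.9 CPM in WT MAT2Ai 4 (-1.03, adjusted p = 0.230, and -0.08 without it). No gene was set by SP MAT2Ai 3, 4 or 5.

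**Figure D4:**
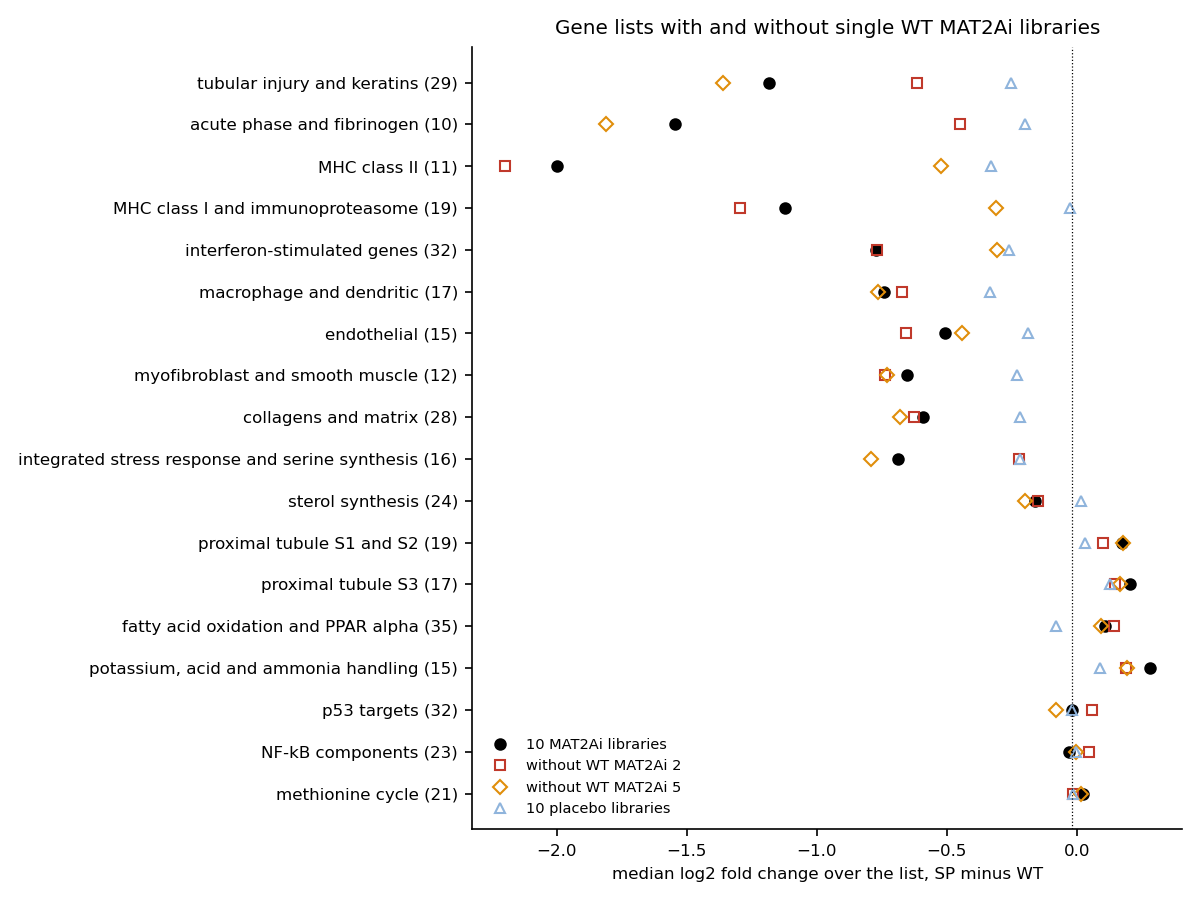
Median log2 fold change (x axis, SP MAT2Ai against WT MAT2Ai) of each gene list (y axis, with its number of genes) with all 10 libraries and without WT MAT2Ai 2 or WT MAT2Ai 5, and under placebo, the dotted line being the median of all genes. Tubular injury moves from -1.19 to -0.61 without WT MAT2Ai 2, MHC class II from -2.0 to -0.52 without WT MAT2Ai 5, and macrophage genes stay between -0.67 and -0.77.

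The lists of methionine cycle, Polycomb with H3K27, and NF-κB component genes had medians near that of all genes. *Mat2a* did not pass (-0.26, adjusted p = 0.293), and 12 of 21 methionine cycle genes were positive (median 0.02, none called). Of 15 genes of Polycomb repressive complex 2 and of histone H3K27 methylation, 7 were positive (median -0.02, none called). *Jarid2*, an accessory subunit of the complex, read 46.6, 36.1, 42.0, 58.9 and 32.2 CPM in SP and 30.3, 29.6, 27.9, 24.1 and 34.2 CPM in WT, with an adjusted p of 0.0512. Components of NF-κB were 10 positive and 13 negative (median -0.03, none called). Its target genes were negative in 14 of 17 (median -0.65), with 2 called lower, against 1.20% of all genes. The median was -0.43 without WT MAT2Ai 2, which set 2 of the 17. Among targets that the study names, *Ccl2* (-0.99), *Icam1* (-0.36) and *Il1b* (0.13) were not called (edgeR adjusted p = 0.163 to 0.884). *Tnf* and *Il6* were not among the tested genes. Of 15 glucose carriers, 9 were negative (median -0.03), with *Slc5a2* the gene called. Markers of the thick ascending limb, distal convoluted tubule, principal cells and intercalated cells had medians of -0.07, 0.20, 0.13 and 0.27.

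Genes that neighbour the mutated *Slc5a2* were examined apart from the rest. Within 10 Mb, 200 genes were tested (median -0.05), 1 was called higher and 5 lower (against 0.644% and 1.20% of all genes), and 4 lay above and 5 below without overlap (against 1.71% and 1.68%). *Pycard*, the inflammasome adaptor ASC, was the one called higher (3.69, 5.16, 3.85, 4.40 and 3.97 CPM in SP against 1.74, 2.33, 2.09, 1.76 and 2.33 CPM in WT, 1.04 ± 0.22, adjusted p = 0.0311), and its log2 fold change in placebo was 1.05. *BC017158* overlaps the end of *Slc5a2* (chr7:128271379-128298170) and lay slightly higher in SP (0.17, adjusted p = 0.0665). The strand setting of the counting was not given in the sources used here, so its reads cannot be assigned with certainty.

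The placebo mice gave the same contrast without the inhibitor. Their libraries form neither side of the MAT2Ai comparison, but they enter the estimate of spread behind its p-values. No gene was called in SP placebo against WT placebo (0% of 16152, edgeR quasi-likelihood test, smallest adjusted p = 0.211), with 1212 genes at an unadjusted p under 0.05. Without SP placebo 1 and 2, 1 gene was called (0.00619%), *Slc5a2*, at a log2 fold change of -2.94. Directions were nevertheless shared: 475 of the 549 non-overlapping genes (86.5%) had the same sign in placebo, 238 of 277 higher and 237 of 272 lower, against 10180 of all 16152 genes (63.0%). Without SP placebo 1 and 2 it was 477 genes (86.9%, against 63.9% of all genes). The values were smaller in placebo, with a median of 0.08 for the genes higher in SP MAT2Ai and -0.19 for the genes lower, or 0.10 and -0.26 without those 2 libraries. In placebo, 19 of the 549 also did not overlap in the same direction, against 193 of all 16152 genes (1.19%) in either direction. Without SP placebo 1 and 2 it was 97 of the 549, against 1156 of all genes. A smaller group separates more easily, so the 2 counts are not to be read against each other.

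Among single genes, *Pycard* (1.05, and 1.25 without SP placebo 1 and 2), *Cyp2d9* (-0.97) and the neural adhesion molecule *Chl1* (1.03 in placebo and 0.90 ± 0.22 under MAT2Ai) had placebo values as large as those under MAT2Ai. *Degs2* (0.40), *Slc6a15* (0.46), *C1qb* (-0.41) and *Tagln* (-0.43) lay in the same direction with smaller values. *Ehhadh* (0.13) and *Col19a1* (0.05) had smaller values, which were 0.20 and 0.24 without SP placebo 1 and 2. *Angpt2*, lower in SP under MAT2Ai, had the opposite sign in placebo (0.04, and 0.22 without SP placebo 1 and 2). Of the genes set by a single library, 177 of 246 (72.0%) had the same sign in placebo, which was 27 of 59 (45.8%) for WT MAT2Ai 3, 85 of 112 (75.9%) for WT MAT2Ai 2 and 54 of 61 (88.5%) for WT MAT2Ai 5. Without SP placebo 1 and 2 it was 169 of 246 (68.7%), with 23 of 59 (39.0%) for WT MAT2Ai 3.

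**Figure D5:**
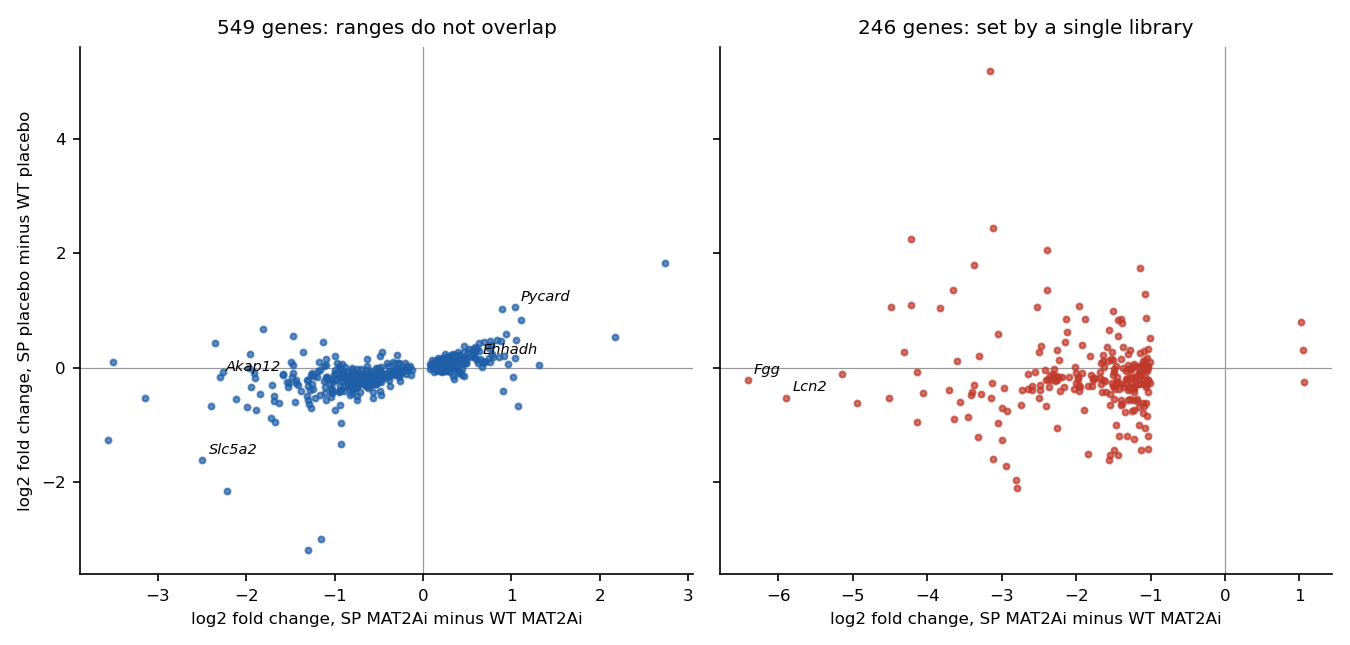
Log2 fold change of SP against WT under placebo (y axis) plotted against that under MAT2Ai (x axis), each point a gene, for the 549 genes whose MAT2Ai ranges did not overlap (left) and the 246 genes set by a single library (right). On the left 475 points lie in the quadrants of equal sign, and on the right 177.

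A test of the difference between the contrasts under MAT2Ai and under placebo called no gene (0%, edgeR quasi-likelihood interaction, smallest adjusted p = 0.842), with 903 genes at an unadjusted p under 0.05 and 1 called by DESeq2. A gene called under MAT2Ai and not under placebo was therefore not shown to differ between the treatments.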

How the data were processed

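Kidney cortex RNA of mice was sequenced as 20 bulk poly(A) libraries (directional kit, NovaSeq 6000). The authors aligned the reads to mm10 with STAR and counted them per Ensembl gene with htseq-count, and deposited raw counts per gene and library, with no normalization. The strand setting and the aligner's multimapping limit were not given in the sources used here. Rows that name no gene (reads in no feature, 3.87% to 5.49% of uniquely mapped reads, and ambiguous or multimapped reads) were left out of totals and tests, and 0 columns of other series were found. Groups came from the sample titles. Genes were kept with filterByExpr (16152 of 43430), scaled by TMM and fitted with edgeR 4.0.16 (R 4.3.3) as quasi-likelihood models with 1 coefficient per group over all 20 libraries, and p-values were adjusted by Benjamini-Hochberg over all genes tested. Placebo contrasts were fitted on the 10 placebo libraries. Ranges were compared on a log2 CPM scale (prior count 2). A gene was set by a single library when leaving that library out removed more than 1/2 of a log2 fold change of at least 1 in size. DESeq2 1.42.0, limma-voom (limma 3.58.1), other scalings, filters, a replicate block and leaving out libraries were alternatives. Scripts were tested on simulated data. The members and lists were chosen with earlier results of these data known. Genes were named by rank of change and of p among called, non-overlapping and single-library genes whose log2 CPM averaged at least 0, by the smallest p in each list, and from the genes the study names, with 16 predicted gene models passed over, and further genes were named after their values were seen. No library was a copy of another. Promoters came from RefSeq on GRCm38.p6, matched by symbol. Some genes that passed the naming rule are not reported here.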

Additional observations from a re-analysis of the deposited data

Results flagged for a closer look

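In 13 of the 140 groups of 5 libraries tested (70 genes in 2 groups), 1 library lay far from the other 4, measured as its gap to the nearest library divided by the range of the group on log2(CPM + 0.1). Chance flags about 1 in 20 groups, but many of the genes were named because 1 WT MAT2Ai library was far from the others or because their change was extreme, so the count is a description and is not to be read against that rate. All 13 were WT MAT2Ai libraries, and 9 of them were WT MAT2Ai 2. In that library *Atf5*, a transcription factor of the stress response (40.8 CPM against 15.0 to 16.3 in the other WT libraries), had a ratio of 0.913, *Mmp14* (6.99 against 3.30 to 3.70 CPM) 0.850, *Asns* 0.822, *Trib3* (4.95 against 0.681 to 1.11 CPM) 0.766, *Lrg1* 0.754 and *Akap12* 0.727, all as the highest library. As the lowest library it had ratios of 0.837 for *Hadh*, 0.797 for *Col19a1* and 0.787 for *Cyp2e1*. In *Atf5* and *Mmp14* the other 4 WT libraries also lay above all 5 SP libraries, with log2 fold changes of -0.39 and -0.57 without WT MAT2Ai 2.

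*H2-Ab1* was highest in WT MAT2Ai 5 (ratio 0.863), and *Tspan6*, a tetraspanin, in WT MAT2Ai 3 (16.9 CPM, 0.731). The mucosal chemokine *Ccl28* was highest in WT MAT2Ai 4 (629.6 CPM against 342 to 407 in the other WT libraries, ratio 0.718), which overlapped the SP libraries (525 to 1011 CPM), and its change was 0.85 ± 0.18 with that library and 1.04 without. *Nos3* was lowest in WT MAT2Ai 1 (5.23 CPM, ratio 0.771), still above all SP libraries.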

How the results depend on the processing

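The count of 298 called genes was 1203 with DESeq2 (466 higher in SP and 737 lower, 292 of the 298 among them), 945 with the likelihood ratio test (260 and 685), 481 without TMM factors (42 and 439), 2 from the 10 MAT2Ai libraries alone, 0 without WT MAT2Ai 2 and 3 together (smallest adjusted p = 0.0511, 2341 genes at an unadjusted p under 0.05, 384 called by the likelihood ratio test), and 121 without the libraries labelled SP placebo 1 and 2, an alternative chosen after seeing the data. Leaving out 1 library gave 0 to 778 calls, and 598 to 1106 genes without overlap, which was 1110 without WT MAT2Ai 2 and 3. Whether the numbers of the libraries pair them was not tested. Correlations of same-numbered MAT2Ai libraries were -0.06 to 0.27, with 2 of 5 over 0.1, and a replicate block gave 88 calls (37 and 51). The count set by a single library was 156 when 2/3 of the change had to be lost, and 530 with a minimum change of 1.5-fold. The interaction called 1 gene with DESeq2. *Fga* (-4.14) was 0.17 without WT MAT2Ai 2 and 3. For each of these the cause was not tested, other than fewer libraries. The 69 named genes that were called kept their direction under the alternatives that gave them a value (64 genes with DESeq2 and 65 with the CPM filter), apart from *Fga*. Of them 24 stayed called under the block, 41 with limma-voom, 34 without SP placebo 1 and 2, 2 from the 10 MAT2Ai libraries, 17 without SP MAT2Ai 1, 1 without SP MAT2Ai 2, and 0 without SP MAT2Ai 3, without SP MAT2Ai 5, or without WT MAT2Ai 2 and 3. Voom (397 calls), RLE factors (300) and both other filters (215 and 320) moved the count by less than 1.5 times. Genes under 1 CPM, such as *Cfd*, rest on few reads.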

Other observations

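Further genes differed between SP MAT2Ai and WT MAT2Ai outside the lists described above. *Prok1*, an endocrine gland-derived angiogenic peptide, read 3.25, 2.82, 2.5, 2.46 and 3.22 CPM in SP and 1.86, 0.839, 2.19, 0.604 and 1.43 CPM in WT (1.04 ± 0.26, edgeR adjusted p = 0.0450), without overlap. *Adm*, which encodes the vasodilator adrenomedullin, did not overlap either (7.03 to 12.6 CPM in SP against 5.48 to 6.71 CPM in WT), and its adjusted p of 0.0536 did not pass. *Plin4*, a lipid droplet coat protein, was called lower (-2.48, adjusted p = 0.0363), with 15.5 CPM in WT MAT2Ai 2 against 1.36 to 3.37 CPM in the other WT libraries, and a change of -1.38 without that library. *Cyp27b1*, the enzyme that makes active vitamin D, was called lower with overlap (-2.23, adjusted p = 0.0432).

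Several lists lay near the median of all genes. Circadian genes (18, median 0.00), hypoxia genes (14, median 0.06), glycolysis genes (16, median 0.09) and fatty acid synthesis genes (15, median -0.09) were among them. NRF2 targets (16 of 22 negative, median -0.15) and ER chaperones (16 of 19 negative, median -0.14) lay slightly below it, with none called. On leaving out 1 library these 2 medians were -0.27 to -0.08 and -0.19 to -0.09. Podocyte markers were negative in 10 of 12 (median -0.22), erythroid genes in 7 of 10 (median -0.07), AP-1 genes in 18 of 27 (median -0.24, and 0.04 without WT MAT2Ai 2) and renin-angiotensin genes in 7 of 9 (median -0.19). The mitochondrially encoded messages had a median of 0.01 under MAT2Ai and -0.34 under placebo.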
